A study of Mus musculus with 4 samples.

Results

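Gene deserts are long stretches of the genome with no protein-coding gene, and the peaks described here are the sites of open chromatin that lay deepest in them. A peak was counted as a gene desert peak when its summit lay outside every protein-coding gene body and more than 100 kb from every protein-coding gene end. The Gata2cKO list held 1813 such peaks of 44139, a share of 4.11% (95% Wilson interval 3.93% to 4.30%). The Gata2WT list held 2306 of 49394, a share of 4.67% (4.49% to 4.86%). Together they were 4119 of the 93533 peaks of both lists, and since many are the same place seen in both lists they marked 2837 separate sites. Intervals of shares and densities cover counting error only.

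The peaks came from ATAC-seq, in which the transposase Tn5 cuts and tags accessible DNA, so that open chromatin gives a pile of sequenced fragments. Gata2cKO and Gata2WT samples, 2 of each, were germ cells of female C57BL/6J mouse ovaries at E14.5, a stage of fetal life at which female germ cells enter meiosis, enriched with beads against the surface antigen SSEA1 at about 10000 cells a library. All embryos came from crosses of Gata2flox/+ Prdm1-Cre males with Gata2flox/flox females, so floxed Gata2 alleles occur in both genotypes. Cre is driven from Prdm1, a gene of early germ cells that other tissues also use, and the labels say neither whether Gata2WT embryos carried Cre nor which part of Gata2 is deleted. The 2 samples of a genotype stand in 1 combined peak list. The spread between samples is therefore unknown, no difference between the genotypes has a replicate check or a p-value, and a peak that is missing from a list was below its threshold and need not be closed.

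A gene desert can hold enhancers, short stretches of DNA to which transcription factors bind and which act on a promoter far away by looping of the chromatin. Large deserts often flank genes of development, such as Sox2 or the Irx clusters, whose enhancers are spread over long distances, while others flank long neuronal genes and hold few known elements. Deserts also hold long noncoding RNA (lncRNA) genes, whose promoters are open chromatin of another kind. GATA2 is a zinc finger transcription factor, best known from blood stem cells, that binds the short DNA word GATA with a preferred base on either side.

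Gene-end peaks of marker genes were compared with the cell type in the labels. Of 9 germ cell genes, 7 had a peak within 1 kb of a gene end in the Gata2cKO list and 8 in the Gata2WT list, among them Ddx4, Dazl and Stra8 in both, while Nanos3 had none in either. Of 6 genes of supporting and stromal ovary cells 3 had one in the Gata2cKO list and 5 in the Gata2WT list, with Foxl2, Wt1 and Kitl in both. Of 3 endothelial genes 2 had one in each list, of 3 erythroid genes 1 in each list, and of 3 macrophage genes none in either list. The share of all coding genes with such a peak is not given here, so the counts cannot be read as agreement with the label. An open gene end is not expression, and the part of other cell types in the desert peaks was not tested.

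Sequence was at hand only for annotated starts of transcripts, as windows from 250 bases before to 50 bases after the start (RefSeq, GRCm38.p6), and 62 of these windows, of 61 noncoding genes, held the summit of a gene desert peak. The Gata2cKO list put a summit in 34 of them and the Gata2WT list in 46, with 18 in both. The windows below are examples of such distal promoters. The first 4 held a summit in both lists, Gm31135 held one in the Gata2cKO list alone and Gm38542 in the Gata2WT list alone. Capitals mark the forms of the GATA motif searched here on either strand, which are AGATAA or with another last letter AGATAG, plus TGATAA or with another last letter TGATAG.
LOC115490388, chr6:3182866-3183165, plus strand: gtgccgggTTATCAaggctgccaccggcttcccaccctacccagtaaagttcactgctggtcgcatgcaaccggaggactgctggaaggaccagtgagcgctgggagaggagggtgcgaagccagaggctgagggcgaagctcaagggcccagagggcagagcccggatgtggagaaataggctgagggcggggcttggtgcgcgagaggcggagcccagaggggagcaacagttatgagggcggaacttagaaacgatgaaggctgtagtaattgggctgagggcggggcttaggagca
Tunar, chr12:105336743-105337042, plus strand: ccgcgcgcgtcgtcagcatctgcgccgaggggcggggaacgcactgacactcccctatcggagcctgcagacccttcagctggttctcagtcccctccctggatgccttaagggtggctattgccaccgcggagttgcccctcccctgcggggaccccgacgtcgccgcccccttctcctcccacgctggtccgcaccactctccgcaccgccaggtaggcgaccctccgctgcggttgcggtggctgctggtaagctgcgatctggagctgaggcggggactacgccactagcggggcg
Gm29998, chr19:33391551-33391850, plus strand: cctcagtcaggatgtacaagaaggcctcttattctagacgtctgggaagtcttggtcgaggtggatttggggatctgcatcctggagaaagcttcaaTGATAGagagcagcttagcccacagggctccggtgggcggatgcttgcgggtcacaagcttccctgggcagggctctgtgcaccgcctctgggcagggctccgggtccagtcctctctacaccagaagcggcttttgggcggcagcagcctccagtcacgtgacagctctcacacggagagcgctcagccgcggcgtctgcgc
Firre, chrX:50635272-50635571, minus strand: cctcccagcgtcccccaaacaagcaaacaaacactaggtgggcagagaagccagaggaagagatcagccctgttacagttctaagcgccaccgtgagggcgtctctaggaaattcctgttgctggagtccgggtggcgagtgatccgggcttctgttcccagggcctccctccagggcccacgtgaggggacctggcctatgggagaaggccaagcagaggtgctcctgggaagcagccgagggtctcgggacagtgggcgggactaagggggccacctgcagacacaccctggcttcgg
Gm31135, chr8:8484679-8484978, minus strand: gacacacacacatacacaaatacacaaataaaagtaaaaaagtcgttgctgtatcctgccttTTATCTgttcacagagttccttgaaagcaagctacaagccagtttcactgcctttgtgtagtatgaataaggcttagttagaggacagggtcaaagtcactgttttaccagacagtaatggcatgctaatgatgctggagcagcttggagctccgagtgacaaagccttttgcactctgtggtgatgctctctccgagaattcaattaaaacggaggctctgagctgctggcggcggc
Gm38542, chr3:78919584-78919883, minus strand: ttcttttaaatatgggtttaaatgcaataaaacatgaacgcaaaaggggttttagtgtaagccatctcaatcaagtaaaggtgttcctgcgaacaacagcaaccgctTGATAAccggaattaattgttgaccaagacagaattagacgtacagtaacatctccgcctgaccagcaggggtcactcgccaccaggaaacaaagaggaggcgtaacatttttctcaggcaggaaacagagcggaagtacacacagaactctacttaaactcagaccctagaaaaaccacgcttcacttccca

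The window of LOC115490388, a lncRNA gene on chromosome 6, lay under a peak with a −log10 q of 107 in the Gata2cKO list and 173 in the Gata2WT list, among the strongest gene desert peaks of both. The q-value is the authors' estimate of the false discovery rate of a peak, so a larger −log10 q is a stronger peak within its list. Tunar, a lncRNA studied in mouse embryonic stem cells, had 43.3 in the Gata2cKO list and 58.4 in the Gata2WT list. Its nearest coding gene was Tcl1, an AKT cofactor of pluripotent cells, at 114 kb. Gm29998 had 24.4 and Firre, an X-linked lncRNA with a role in nuclear organisation, 20.2 in the Gata2cKO list, against 57.4 for Gm29998 and 12.6 for Firre in the Gata2WT list. The single-list windows lay under weaker peaks, with 5.14 for Gm31135 in the Gata2cKO list and 6.45 for Gm38542 in the Gata2WT list. These values are the authors' own for each peak, and none of them was scaled between the lists, so that no change is read from a pair.

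A GATA word stood in 20 of the 62 windows (32.3%, 22.0% to 44.6%), against 29.6% of all 32585 windows of the table and 36.6% of its 11573 lncRNA windows. Of the 34 windows of the Gata2cKO list 12 held one, and of the 46 of the Gata2WT list 17, and of the 18 windows with a summit in both lists 9 did (50%, 29.0% to 71.0%). Both intervals include the shares of all windows and of lncRNA windows. The windows of LOC115490388, 4930433N12Rik and Gm33022, all with a summit in both lists, share long stretches of sequence and the same GATA word. Windows are thus not all independent, and the intervals given here, which take them as independent, are too narrow. The GC box GGGCGG stood in 24.2% of the 62 windows and in 55.6% of the 18 (33.7% to 75.4%), against 35.9% of all windows and 16.3% of lncRNA windows. The word CCAAT stood in 46.8% of the 62 (34.9% to 59.0%), against 37.6% of all windows and 35.9% of lncRNA windows. TATAAA stood in 8.06% (3.49% to 17.5%), against 13.7% and 15.5%. CACGTG, the core of an E-box, stood in 12.9% (6.69% to 23.4%), against 7.20% and 5.90%. The intervals for CCAAT and TATAAA include both shares. That for CACGTG includes the share of all windows but not that of lncRNA windows. Both strands were searched, no word of a motif lies within a word of another, and a match is a description of the letters and not a bound site.

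Peak density was lower with every step away from coding genes. Within 1 kb outside a gene there were 108 peaks per Mb in the Gata2cKO list and 105 in the Gata2WT list, and inside gene bodies 25.7 and 28.7. From 50 to 100 kb there were 8.77 and 10.6 peaks per Mb. From 100 to 200 kb, where deserts begin by the definition used here, there were 4.92 in the Gata2cKO list and 6.02 in the Gata2WT list. From 200 to 500 kb there were 2.14 and 2.89, from 500 to 1000 kb 0.550 and 0.723, and beyond 1000 kb 0.243 and 0.378. Over all deserts the density was 2.45 peaks per Mb in the Gata2cKO list (95% Poisson interval 2.34 to 2.56) and 3.12 in the Gata2WT list (2.99 to 3.25). Assembly gaps were not subtracted from the lengths. When the longer list was shortened to the 44139 peaks with the highest −log10 p, the Gata2WT density was 2.64, with 1951 peaks or 4.42% of the list.

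**Figure D1:**
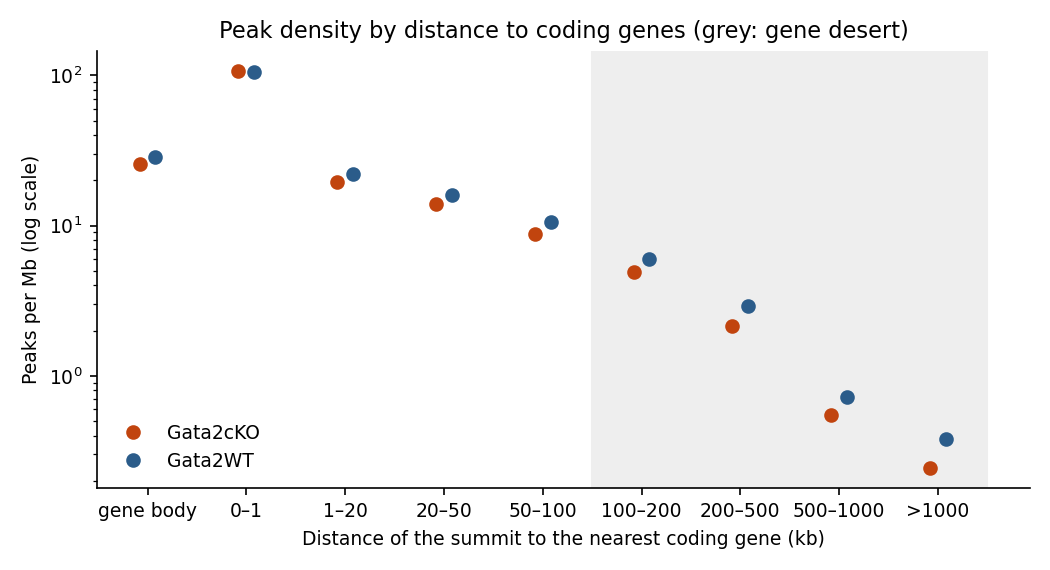
Peaks per Mb of sequence (log scale) by distance of the summit to the nearest coding gene, for the Gata2cKO list and the Gata2WT list, with 1 point a list and zone; the grey zones are gene desert. Density is highest within 1 kb of a gene, at 108 and 105 peaks per Mb, and lowest, at 0.243 and 0.378, beyond 1000 kb, with the Gata2WT point above the Gata2cKO point in each zone except 0 to 1 kb.

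Gene desert peaks were weaker and narrower than the rest of their list. Their median −log10 q was 4.61 in the Gata2cKO list, against 7.38 over the rest of that list, and 4.34 in the Gata2WT list, against 7.002. A −log10 q of at least 10 was reached by 20.8% of desert peaks and 41.8% of the rest in the Gata2cKO list, and by 19.9% and 40.5% in the Gata2WT list. The median width was 407 bp against 550 bp in the Gata2cKO list and 436.5 bp against 553 bp in the Gata2WT list. More than 1 summit was called in 6.18% of desert peaks against 15.4% of the rest in the Gata2cKO list, and in 6.94% against 15.4% in the Gata2WT list. Most of this gap lay with peaks at gene ends, whose median −log10 q was 31.1 in the Gata2cKO list and 37.5 in the Gata2WT list. Intergenic peaks up to 100 kb from a gene stood much closer to the desert peaks, with medians of 5.18 and 4.94.

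The fragments at a summit and the local background against which the peak was called can be solved from the deposited values. The median summit held 13 fragments in desert peaks of either list and 19 in the rest of either list. In 48.3% of Gata2cKO desert peaks and 56.2% of Gata2WT desert peaks the local background was the lowest in the list, the genome-wide background of 2.01 fragments in the Gata2cKO list and 2.19 in the Gata2WT list. The same held for 14.46% of the rest in the Gata2cKO list and 19.4% in the Gata2WT list. Desert peaks thus stood in quieter surroundings. They were also more isolated, with another peak within 10 kb for 22.4% against 50.6% of the rest in the Gata2cKO list and for 24.1% against 52.6% in the Gata2WT list.

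A peak was called single-list when no peak of the other list overlapped it by at least 1 bp. Of the Gata2cKO desert peaks 538 of 1813 were absent from the Gata2WT list, or 29.7% (27.6% to 31.8%), where the share over all Gata2cKO peaks was 19.7%. Of the Gata2WT desert peaks 1033 of 2306 were absent from the Gata2cKO list, or 44.8% (42.8% to 46.8%), where the share over all Gata2WT peaks was 28.5%. Peaks at gene ends were rarely single-list, at 4.17% in the Gata2cKO list and 6.68% in the Gata2WT list. Intergenic peaks up to 100 kb from a gene had 24.9% and 34.6%, and peaks inside genes 26.9% and 36.9%. Single-list desert peaks were weak, with a median −log10 q of 2.88 in the Gata2cKO list and 2.96 in the Gata2WT list, against 6.08 and 6.72 for shared ones.

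The higher single-list share of desert peaks depended on how peaks of equal strength were matched. With the rest of the list weighted to the desert peaks by 6 bins of −log10 q, its share was 25.8% in the Gata2cKO list and 38.5% in the Gata2WT list, so that desert peaks stood 3.89 and 6.31 percentage points above it. With weighting by summit fragments and by whether the local background was the genome-wide one, a choice made after seeing the data, the rest had 31.0% in the Gata2cKO list and 45.2% in the Gata2WT list. Desert peaks, at 29.7% and 44.8%, then stood just below the rest. By this matching, desert peaks were missing from the other list about as often as peaks elsewhere with as many fragments and as quiet a surrounding. With both lists cut to equal length the shares were 33.7% of Gata2cKO desert peaks and 38.6% of Gata2WT desert peaks, beside 22.8% and 23.1% of all peaks.

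Strong desert peaks were nearly all shared. At a −log10 q of at least 10, 8 of 378 Gata2cKO desert peaks were single-list (2.12%, 1.08% to 4.12%), where the share over all such Gata2cKO peaks was 0.802%. In the Gata2WT list there were 27 of 459 (5.88%, 4.07% to 8.42%), where the share over all such peaks was 1.30%. Matched by −log10 q, the rest of the list had 1.49% in the Gata2cKO list, within the interval of the desert peaks, and 2.46% in the Gata2WT list, below it. Matched on fragments and background, again a choice made after seeing the data, the rest had 2.36% and 4.58%, both within the intervals.

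In the Gata2WT list the single-list share was higher at each greater distance. It was 39.4% from 50 to 100 kb, 42.9% from 100 to 200 kb, 46.9% from 200 to 500 kb, 47.8% from 500 to 1000 kb and 60.7% beyond 1000 kb, where it rests on 17 of 28 peaks (42.4% to 76.4%). All Gata2WT peaks with the same fragments and background as those zones had 41.5%, 43.3%, 48.0%, 46.7% and 45.1%. In the Gata2cKO list the shares over the same zones were 26.7%, 30.1%, 28.3%, 32.6% and 38.9%, where the last rests on 7 of 18 peaks (20.3% to 61.4%). The matched values there were 28.8%, 29.9%, 32.6%, 32.9% and 35.6%.

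**Figure D2:**
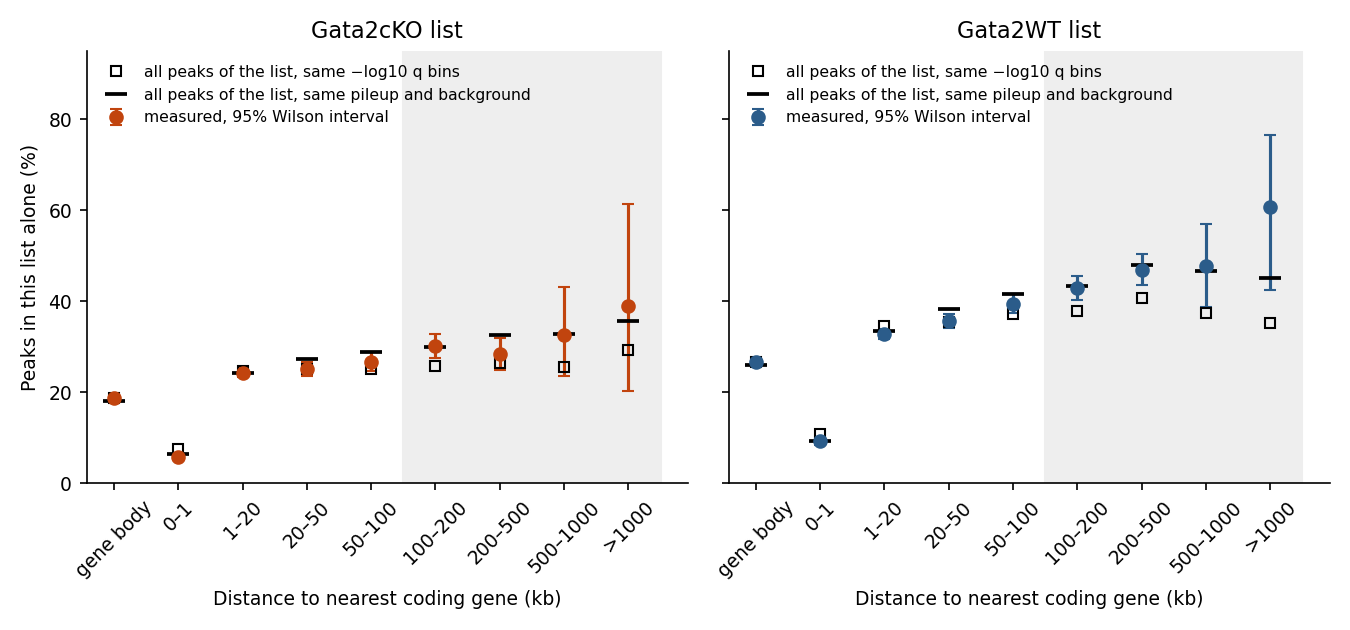
Percent of peaks in 1 list alone by distance to the nearest coding gene in kb, for the Gata2cKO list (left) and the Gata2WT list (right); filled points are measured with 95% Wilson intervals, open squares and bars are all peaks of the same list matched by −log10 q or by summit fragments and background, and grey marks gene desert. In the Gata2WT list the points run from 39.4% at 50 to 100 kb to 60.7% beyond 1000 kb, and within deserts the bars lie closer to the points than the squares do, except that in the Gata2cKO list from 200 to 500 kb the square is the closer.

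The strongest desert peaks were present in both lists. The strongest of all, chr17:39843221-39846809 between the exocrine peptide genes Esp15 and Esp38, had a −log10 q of 370 in the Gata2cKO list and 479 in the Gata2WT list. A neighbour, chr17:39847528-39848730, at the ends of the ribosomal RNA pseudogene Rn18s-rs5 and the lncRNA AY036118, had 240 and 211. Both stood apart from all other desert peaks, with local backgrounds of 603 and 604 fragments in the Gata2cKO list and 632 and 627 in the Gata2WT list, and fold enrichments of only 3.12 and 2.65 in the Gata2cKO list and 3.397 and 2.497 in the Gata2WT list.

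The second strongest, chr3:5860359-5860823 between Pex2, a peroxisome assembly gene, and 1700008P02Rik, had 289 in the Gata2cKO list and 295 in the Gata2WT list. It was narrow, at 465 bp and 455 bp, with 256 and 267 fragments at the summit, and its fold enrichments of 32.2 and 30.8 were the highest of any desert peak in either list. No gene of the table lay within 1 kb. Next came the LOC115490388 promoter, chr6:3182544-3183546, and chr1:7397168-7398659 at an end of the lncRNA Gm26901, with 90.5 and 97.3. Further down, and chosen after its values were seen, was a shared peak that lay 277 kb from Sox6, a SOX factor of cartilage and red cell development, with 58.6 in the Gata2cKO list and 42.5 in the Gata2WT list.

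The strongest peak of the Gata2cKO list alone was chr9:41332114-41332585, with a −log10 q of 21.6 and 33 fragments, 171 kb from Ubash3b, a phosphatase gene. It was followed by peaks of 14.7 on chromosome 1 between Dusp10 and Hlx, 13.7 on chromosome 15 between 4933412E24Rik and Lratd2, 13.6 on chromosome 13 between Gadd45g and Diras2, and 11.6 on chromosome 17 between 1700010I14Rik and Pabpc6. Among the next was chr5:75788074-75788328, with 10.6 and 19 fragments. It lay 131 kb from Kit, the receptor that germ cells need for survival and migration, and 145 kb from Kdr on the other side. It was named after its value was seen. A shared peak lay nearer to Kit, at 124 kb, with 11.4 in the Gata2cKO list and 11.6 in the Gata2WT list.

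Among the strongest peaks of the Gata2WT list alone was one with a −log10 q of 18.04 on chromosome 17 between Tbc1d5 and Satb1, a chromatin organiser. A peak of 17.2 on chromosome 4, chr4:22835394-22836147, lay 347 kb from the POU factor gene Pou3f2, and one of 16.9 on chromosome 16, chr16:29876108-29876674, 189 kb from the Notch target Hes1. Next was chr3:34802741-34803261, with 16.6 and 31 fragments, 151 kb from Sox2, a core factor of pluripotency. These peaks, and the strongest of the Gata2cKO list alone, were picked for their strength. By that choice they lay above the single-list medians of 2.88 and 2.96.

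Of the 3 desert peaks farthest from a coding gene in each list, 1 was shared. In the Gata2cKO list the farthest lay 1877 kb away between Slc39a10 and Tmeff2 on chromosome 1, with a −log10 q of 3.61, and was single-list. The next, 1721 kb away between Dsel and Cntnap5a, was shared, with 4.38 in the Gata2cKO list and 8.15 in the Gata2WT list. In the Gata2WT list the farthest lay 2188 kb away between Celf4 and Pik3c3 on chromosome 18, with 4.05, followed by one 2153 kb away between Olfm4 and Pcdh17 on chromosome 14, with 5.62. Next, 2008 kb away and again between Celf4 and Pik3c3, was a peak with 16.1. None of these was in the Gata2cKO list. At the other end, the peaks just inside the distance limit lay at 100.029 kb with 4.38 in the Gata2cKO list and at 100.052 kb with 3.31 in the Gata2WT list, and those just outside at 99.934 kb with 4.196 and at 99.979 kb with 2.78.

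Between neighbouring coding genes there were 1537 deserts, with a total of 738 Mb or 28.4% of the 2600 Mb from the outermost coding genes of each chromosome, and a median length of 221 kb. Desert peaks of both lists stood in 593 deserts, of the Gata2cKO list alone in 63 and of the Gata2WT list alone in 139, while 742 held none. Empty deserts were short, with a median of 132 kb, against 369 kb for those with peaks of both lists. Still, 70 of the 217 deserts longer than 1 Mb were empty, the longest being the 3.73 Mb between Lrrc4c, a synaptic adhesion gene, and Iftap. More Gata2cKO than Gata2WT peaks stood in 155 deserts, fewer in 402, and the numbers were equal in 238. All these counts are of the deposited lists, of which the Gata2WT list is the longer. With lists of equal length, desert peaks of both lists stood in 568 deserts. Those of the Gata2cKO list alone then stood in 88 and of the Gata2WT list alone in 109, while 772 held none. Of the 2837 sites 1266 were in both lists, 538 in the Gata2cKO list alone and 1033 in the Gata2WT list alone.

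Sites were concentrated in few deserts. The 60 deserts with at least 10 sites held 816 sites, or 28.8%, on 5.67% of the desert length, a density of 19.5 sites per Mb against 3.84 over all deserts. The most crowded, with 29 sites on 0.589 Mb of chromosome 5, lay between Mn1, a transcriptional cofactor gene of skull and palate development, and the lens crystallin gene Cryba4. It held 21 peaks of each list, 8 of each single-list, and at 49.2 sites per Mb it was also the densest of those at least 0.5 Mb long. Its strongest peak had a −log10 q of 51.6 in the Gata2cKO list and 25.6 in the Gata2WT list.

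The desert between the cilium gene Nphp4 and the adhesion gene Ajap1 on chromosome 4 held 27 sites, with 17 Gata2cKO peaks of which 3 were single-list and 24 Gata2WT peaks of which 10 were. That from Cdh26 to 4930591A17Rik had 22 sites, with 14 Gata2cKO and 19 Gata2WT peaks. The desert from Rragc to the POU factor gene Pou3f1 had 21 sites, with 14 and 17 peaks, and that from Cd83 to Jarid2, a gene of the PRC2 repressor complex, 20 sites, with 13 and 17. Thap1 to Zfp703 held 19 sites, with 11 and 13 peaks, and Matn1 to Ptpru 18 sites, with 14 and 15. Sall3 to Galr1 held 19 sites, with 12 and 17 peaks. Each of these deserts held both shared and single-list peaks.

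**Figure D3:**
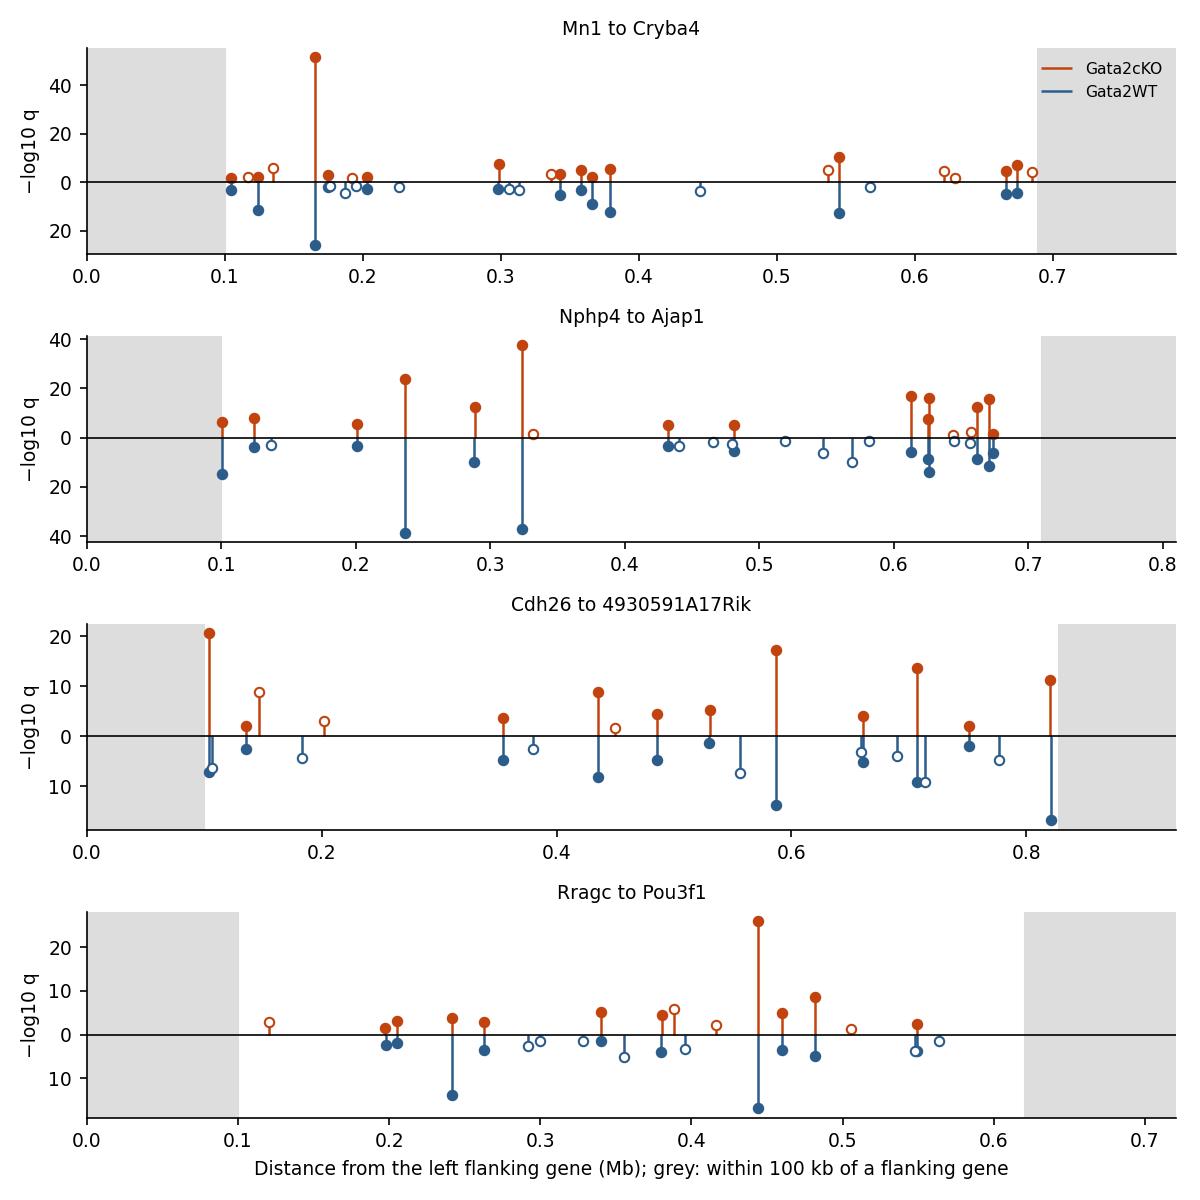
Gene desert peaks in the 4 deserts with the most sites, by distance from the left flanking gene in Mb, with −log10 q upward for the Gata2cKO list and downward for the Gata2WT list; filled points are shared peaks, open points are in 1 list alone, and grey marks the 100 kb next to a flanking gene. The tall stems are filled on both sides and most open points stand on short stems, as in the Mn1 to Cryba4 desert, where the strongest shared peak has 51.6 above and 25.6 below.

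In the lists as deposited, the largest excess of Gata2WT-only over Gata2cKO-only peaks stood in 2 deserts. One ran between Sall1, a zinc finger gene of kidney development and of the pluripotency network, and Tox3. It held 5 Gata2cKO peaks with none single-list and 11 Gata2WT peaks with 7 single-list, or 5 and 9 with lists of equal length. The other was Nphp4 to Ajap1, with 17 and 21 at equal length. Tied for the next place were Zeb2 to Acvr2a, Enc1 to Arhgef28 and Runx1 to Setd4. Zeb2 to Acvr2a held 4 Gata2cKO peaks and 10 Gata2WT peaks at either list length. Enc1 to Arhgef28 held 8 and 14, or 8 and 10 at equal length. Of its peaks 2 and 8 were single-list, or 2 and 4 at equal length. Runx1 to Setd4 held 7 and 13, or 7 and 10 at equal length. Runx1 is the core factor of blood stem cell emergence, and its desert had 1 single-list Gata2cKO peak and 7 single-list Gata2WT peaks, or 2 and 5 at equal length. With lists of equal length Zeb2 to Acvr2a had the largest excess, with no single-list Gata2cKO peak and 6 single-list Gata2WT peaks.

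The largest excess the other way in the deposited lists was 3 peaks, shared by 12 deserts, of which the 5 with the fewest sites are given. Zbtb18 to 1700016C15Rik, Akr1d1 to Trim24 and Bbs9 to Bmper each held 4 Gata2cKO peaks with 3 single-list and 1 Gata2WT peak. Rnd3 to Tas2r134 and Mctp2 to Rgma each had 6 Gata2cKO peaks of which 3 were single-list and 3 Gata2WT peaks with none. With lists of equal length the largest such excess was 4 peaks, in Zbtb18 to 1700016C15Rik and in Gadd45g to Diras2, which had 6 single-list peaks of 12 in the Gata2cKO list and 2 of 8 in the Gata2WT list. With about 2.45 and 3.12 peaks per Mb over all deserts and no replicate lists, the spread of such counts between samples is not known.

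Desert peaks were assigned to the nearest coding gene for 6 lists of genes, which gives position and not a regulatory link. The densities of these lists were not matched for distance to the gene. Developmental transcription factors bordered deserts often, 111 of 153 or 72.5%, against 12.0% of all coding genes, and the desert nearest to them was denser in peaks. It held 157 Gata2cKO peaks at 4.27 per Mb and 209 Gata2WT peaks at 5.69 per Mb, against 2.45 and 3.12 over all genes. Of these peaks 29.9% were single-list in the Gata2cKO list and 48.3% in the Gata2WT list, beside 29.7% and 44.9% over all genes. At least 1 peak was nearest to 70 of the 153 genes.

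Pou3f1 had 8 peaks in each list, 3 of each single-list, with a strongest −log10 q of 26.01 in the Gata2cKO list and 17.0 in the Gata2WT list. Sox2 had 6 Gata2cKO peaks, all shared, and 10 Gata2WT peaks with 4 single-list. The strongest of Sox2 had 46.0 in the Gata2cKO list and 37.4 in the Gata2WT list, and the nearest lay 104 kb away in both. Pou3f3, a POU factor of brain and kidney, had 4 Gata2cKO peaks with 1 single-list and 10 Gata2WT peaks with 7 single-list. Sox2 and Pou3f3 thus had more peaks in the Gata2WT list, and Pou3f1 as many in each. Pou3f1, Pou3f3 and Mycn, described next, had 11 sites each, and Sox2 had 10.

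Pluripotency genes, which germ cells share with embryonic stem cells, had 34 Gata2cKO peaks at 9.39 per Mb (6.51 to 13.1) and 46 Gata2WT peaks at 12.7 per Mb (9.30 to 17.0), on 3.62 Mb of desert next to 14 of the 37 genes. Single-list were 32.4% of these Gata2cKO peaks (19.1% to 49.2%) and 52.2% of these Gata2WT peaks (38.1% to 65.9%). Both intervals include the shares over all genes, 29.7% and 44.9%. Sox2, Mycn and Sall1 had the most sites, and these 3 also stand in the list of developmental factors. Mycn, a MYC family gene, had 5 Gata2cKO peaks with 3 single-list and 8 Gata2WT peaks with 6 single-list. Sall1 had 5 Gata2cKO peaks with none single-list and 8 Gata2WT peaks with 4. Nr5a2, a nuclear receptor gene, ran the other way, with 6 Gata2cKO peaks of which 3 were single-list and 4 Gata2WT peaks of which 1 was. Klf4 had 3 Gata2cKO and 4 Gata2WT peaks, and Tbx3 had 3 and 5.

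Of the germ cell and meiosis genes 10 of 60, or 16.7%, bordered a desert, against 12.0% of all coding genes. They had 7 Gata2cKO peaks at 7.46 per Mb and 8 Gata2WT peaks at 8.53 per Mb, 5 and 6 of them single-list. Over all genes the densities were 2.45 and 3.12 per Mb. The densities of this list rest on few peaks and on only 0.938 Mb of desert. Msx2, a homeobox gene downstream of BMP signalling, had 2 Gata2cKO and 5 Gata2WT peaks. Kit had 2 and 1, and Tfap2c, an early germ cell factor, 2 and none. GATA factors and blood partners bordered a desert in 5 of 20 genes, with 10 Gata2cKO peaks, 3 single-list, and 18 Gata2WT peaks, 11 single-list. Gata3, a GATA factor of T cells and trophoblast, had 3 Gata2cKO peaks with 1 single-list and 7 Gata2WT peaks with 5. Runx1 had 2 Gata2cKO peaks with none single-list and 5 Gata2WT peaks with 3. Gata6, a GATA factor of endoderm, had 4 Gata2cKO and 3 Gata2WT peaks. With so few peaks the intervals for GATA factors and blood partners were wide. Their single-list share had 10.8% to 60.3% in the Gata2cKO list and 38.6% to 79.7% in the Gata2WT list. These intervals include the shares over all genes, 29.7% and 44.9%.

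Signalling ligands, receptors and inhibitors had 38 Gata2cKO peaks at 1.95 per Mb and 46 Gata2WT peaks at 2.37 per Mb. The ligand gene Bmp7 had 5 and 4, and Dll1, a Notch ligand, 3 and 3 with a strongest −log10 q of 43.1 in the Gata2cKO list and 73.4 in the Gata2WT list. Fgf9, a ligand gene of gonad development, had 2 Gata2cKO and 3 Gata2WT peaks.

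Neuronal adhesion and synapse genes stood at the opposite end. A desert was bordered by 111 of 129 genes of the list, and 113 Mb of desert lay nearest to them. They had 52 Gata2cKO peaks at 0.460 per Mb (0.344 to 0.604) and 81 Gata2WT peaks at 0.717 per Mb (0.569 to 0.891). Over all desert peaks density fell from 4.92 and 6.02 per Mb at 100 to 200 kb to 0.243 and 0.378 beyond 1000 kb. Whether distance gives the low density near neuronal genes was not tested. Single-list were 34.6% of these Gata2cKO peaks (23.2% to 48.2%) and 58.0% of these Gata2WT peaks (47.2% to 68.2%). Over all genes the shares were 29.7% and 44.9%. Adgrl2, a latrophilin receptor gene, had 6 Gata2cKO and 11 Gata2WT peaks, 1 and 6 of them single-list. The protocadherin gene Pcdh20, on the longest desert of 4.34 Mb that it shares with Pcdh9, had 2 and 4. The NMDA receptor subunit gene Grin2a had 3 and 3. None of 30 housekeeping genes bordered a desert.

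**Figure D4:**
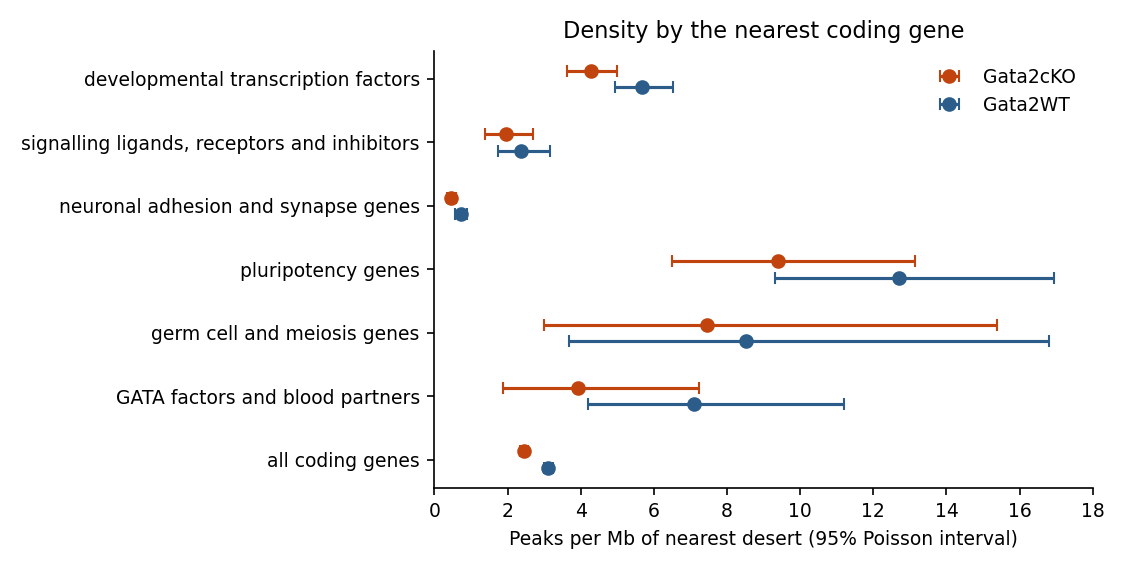
Gene desert peaks per Mb of the desert nearest to the genes of each list, with 95% Poisson intervals, for the Gata2cKO list above and the Gata2WT list below. Pluripotency genes lie farthest right at 9.39 and 12.7 peaks per Mb and neuronal adhesion and synapse genes farthest left at 0.460 and 0.717, against 2.45 and 3.12 for all coding genes. Densities are not matched for distance to the gene.

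Deserts as defined here are free of coding genes only. A noncoding gene of the table lay over or within 1 kb of 545 Gata2cKO desert peaks (30.1%, 28.0% to 32.2%) and 674 Gata2WT desert peaks (29.2%, 27.4% to 31.1%), mostly lncRNA genes, with 505 and 631. Peaks at the end of a lncRNA gene were 169 in the Gata2cKO list and 211 in the Gata2WT list, and fewer of them were single-list than elsewhere in deserts, at 18.9% (13.7% to 25.5%) and 35.5% (29.4% to 42.2%). Desert peaks with no gene of any kind had 30.6% (28.1% to 33.2%) and 46.2% (43.8% to 48.6%). Those inside a lncRNA gene away from its ends resembled them, with 31.5% and 44.8%. Peaks at lncRNA ends were also somewhat stronger, with 29.6% of Gata2cKO and 27.5% of Gata2WT peaks at a −log10 q of at least 10, against 20.1% and 19.4% where no gene lay.

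Firre held the most desert peaks of any noncoding gene, with 10 in the Gata2cKO list, all shared, and 12 in the Gata2WT list, 2 of them single-list, along its 72.2 kb at chrX:50563120-50635321. Morrbid, a lncRNA known for regulating the survival of myeloid cells through Bcl2l11, had 7 Gata2cKO peaks and 9 Gata2WT peaks. A930011G23Rik had 6 and 9, 2610307P16Rik 4 and 6, and 5730522E02Rik 5 and 5.

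A microRNA gene lay within 1 kb of 1 Gata2cKO desert peak and 3 Gata2WT desert peaks. The shared one was Mir802, in the Runx1 to Setd4 desert, with a −log10 q of 3.14 and 11 fragments in the Gata2cKO list and 4.56 and 13 fragments in the Gata2WT list. The mature miR-802 sequences of RefSeq are shown with the seed, bases 2 to 8, in capitals.
mmu-miR-802-5p: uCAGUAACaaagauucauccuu
mmu-miR-802-3p: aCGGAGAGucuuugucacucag
Mir7214 and Mir5127 lay near peaks of the Gata2WT list alone, with 1.97 and 5.62.

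Desert peaks were unevenly spread over chromosomes. Autosomes had 2.59 Gata2cKO desert peaks per Mb of desert (2.47 to 2.71) and 3.28 Gata2WT desert peaks per Mb (3.15 to 3.42), and the X chromosome 0.826 (0.609 to 1.10) and 1.19 (0.924 to 1.503). The X lay below every autosome in both lists. Among autosomes chromosome 15 was lowest, with 1.57 and 2.18, and chromosome 13 highest, with 4.89 and 6.18. On the X 5 of 48 Gata2cKO desert peaks (10.4%, 4.53% to 22.2%) and 27 of 69 Gata2WT desert peaks (39.1%, 28.5% to 50.9%) were single-list. The rest of the X had 12.8% (10.8% to 15.1%) in the Gata2cKO list and 21.4% (19.002% to 23.998%) in the Gata2WT list. On autosomes 30.2% of Gata2cKO and 45.03% of Gata2WT desert peaks were single-list.

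**Figure D5:**
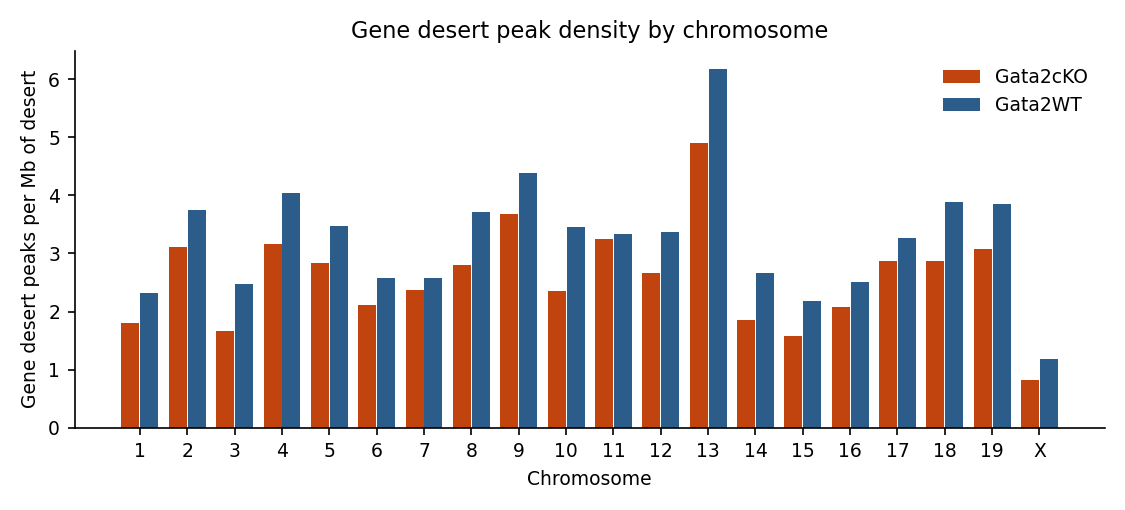
Gene desert peaks per Mb of desert on each chromosome, with 1 bar for the Gata2cKO list and 1 for the Gata2WT list. Chromosome 13 is highest at 4.89 and 6.18 and the X chromosome lowest at 0.826 and 1.19, and the Gata2WT bar is the taller on all chromosomes.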

How the data were processed

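ATAC-seq peaks of 2 Gata2cKO and 2 Gata2WT samples were used as 1 combined list per genotype. Per the submitters' processing notes, the build was GRCm38 (mm10) and the tools were bedtools 2.29.2, MACS2 2.2.6, Picard 2.23.0, SAMtools, Bowtie2 2.3.5.1 and Trimmomatic 0.39. How these tools were set, any Tn5 shift and the way samples were combined: not given in the sources used here. Fold enrichment, as deposited, is a ratio of summit to local background. Its probability is deposited as −log10 p and, adjusted, as −log10 q. The score that the authors deposited is −log10 p times 10 without decimals, and the deposited summit offset gives the summit's place. The smallest −log10 p was 3.00 in both lists. These values describe peaks within 1 list only.

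Rows with the same interval were merged to their highest −log10 p, which took 52241 Gata2cKO rows to 44139 peaks and 58367 Gata2WT rows to 49394 on the 19 autosomes and X. Coding genes (21631) came from the RefSeq table of GRCm38.p6. Summit fragments and local background were solved from fold enrichment and −log10 p, and came out whole for 100% of peaks of both lists within 0.001. Read depth per sample was not analysed here. The fragment unit is whatever was piled up. Scripts ran in Python 3.11.15 with numpy 2.4.6, pandas 2.3.3 and scipy 1.17.1, and were tested on simulated data.

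Gene desert peaks and gene lists were chosen with earlier results of these data known. Peaks named were the 5 strongest shared and single-list, the farthest and those at the limit, of which 1 is not reported here. Deserts named had the most sites, the largest single-list excess or the highest density. For each gene list up to 3 genes were named by peaks of both lists counted together, where the rule set sites (by sites Mycn, described with the pluripotency genes, takes the place of Sox2 among developmental factors), and for noncoding genes the 5 with the most peaks. Others were chosen after seeing values. Alternatives varied the distance limit, strength, overlap rule, list length, gene set, collapsing and matching.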

Additional observations from a re-analysis of the deposited data

How the results depend on the processing

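Of 72 values under alternative settings 32 moved by less than their counting error or by under 1.5 times and 40 moved further. With a limit of 50 kb there were 3598 Gata2cKO and 4464 Gata2WT peaks, at 3.81 and 4.73 per Mb, and the Gata2WT single-list share was 42.2%. With 200 kb there were 719 and 970, at 1.39 and 1.88 per Mb, with a Gata2WT share of 47.4%. With a −log10 q of at least 5 there were 881 and 998 peaks, at 1.19 and 1.35 per Mb, single-list shares of 10.8% and 18.8%, and 392 deserts with peaks of both lists. With at least 10 there were 378 and 459, at 0.510 and 0.619 per Mb, with shares of 2.12% and 5.88%. Peaks of that strength stood in 213 deserts in both lists, in 40 in the Gata2cKO list alone and in 89 in the Gata2WT list alone. No such peak stood in 1195. At either strength the single-list shares were taken against the full other list, but deserts were counted from peaks of that strength only. A desert counted for one list alone may thus hold a weaker peak of the other. Away from all genes of the table, noncoding included, there were 142 and 184 peaks, with shares of 38.0% and 52.2%. An overlap of at least 50% of the shorter peak gave a Gata2cKO share of 32.05%, and summits within 250 bp gave 36.1% and 49.7%. Equal list lengths gave 33.7% and 38.6%, and a Gata2WT density of 2.64 per Mb. Rows left uncollapsed gave a Gata2WT share of 42.0%. The rest of the list weighted by summit fragments and background, added after seeing the data, had 31.0% and 45.2% single-list, which turned the difference of desert peaks from the rest to -1.34 and -0.39 percentage points, against 3.89 and 6.31 by −log10 q. The cause of these moves was not tested. No paired analysis was possible because the samples of each genotype stand in 1 combined list, and leaving out a sample was not possible for the same reason. Under each setting of limit, strength, overlap, length, gene set or collapsing, the single-list share of desert peaks was above that of all peaks of the same list. Weak peaks close to the background limit what a missing peak can show.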

Other observations

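The Gata2cKO list held 0.786 times as many gene desert peaks as the Gata2WT list, and 0.899 times as many peaks elsewhere. On the autosomes the ratio for desert peaks ran from 0.671 to 0.978 and for the rest from 0.857 to 0.929, and on the X it was 0.696 for desert peaks and 0.910 for the rest. With lists of equal length there were 1813 Gata2cKO and 1951 Gata2WT desert peaks, a ratio of 0.929. Depth and genotype cannot be told apart in these ratios.

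Immunoglobulin and T cell receptor segments, which are rearranged only in lymphocytes, lay near 2 Gata2cKO and 2 Gata2WT desert peaks, with the strongest at a −log10 q of 2.88 in the Gata2cKO list and 3.31 in the Gata2WT list. Lncpint, a p53-induced lncRNA, had 4 Gata2cKO desert peaks with 3 single-list and 3 Gata2WT desert peaks with 2 single-list. Pvt1, the lncRNA next to Myc, had 2 with none single-list and 5 with 3. Both genes were chosen after their values were seen. Over all desert peaks the single-list share was 29.7% in the Gata2cKO list and 44.8% in the Gata2WT list.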
